A study of Rattus norvegicus with 8 samples.

Results

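Amino acid and neurotransmitter transporters were taken as the genes of solute carrier families 1, 3, 6, 7, 36, 38 and 43, by symbol. The array measured 50 of them among 14217 genes with a single symbol, each by its probe set with the highest mean over the 8 arrays. Levels were compared between kidneys of 4 Si deplete and 4 Si replete rats, all female Sprague-Dawley, which were 29 weeks old and had been on their diet for 26 weeks. Daily intake per kg body weight was 0.17 mg Si for the deplete rats and 4.1 mg Si for the replete rats. Both groups ate the same low-Si feed, and the replete rats had orthosilicic acid added to their drinking water, so the added silicon is the difference between the diets. RNA of the whole ground left kidney of 1 rat went onto each array, and every level is a log2 value averaged over all cell types of the kidney. In such bulk samples, fewer cells of a type and less RNA per cell cannot be told apart.

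The kidney filters free amino acids in bulk and takes nearly all of them back in the proximal tubule. Carriers in the brush border (apical) membrane bring them into the cell, mostly coupled to sodium or to exchange, and carriers in the basolateral membrane pass them to the blood or take up glutamine for ammonia production. Many of the exchangers are pairs of a heavy chain (Slc3a1 or Slc3a2) and a light chain of family 7, and loss of the Slc3a1 and Slc7a9 pair causes cystinuria in humans. Other members serve the demand of growing or amino acid-starved cells, export from lysosomes, or the clearing of transmitters at nerve endings, and the last group is best known from brain.

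Promoter sequence is shown for the members that held the amino acid response core or the HNF1 half-site described below, and for Slc6a18 and Slc7a7. RefSeq promoter windows, from 250 bases before to 50 bases after an annotated start in build GRCr8, were matched for 38 of the 50 members. Slc38a3, Slc1a1 and Slc7a13 were among the unmatched. Only 1 window was kept per member, and it need not lie at the outer end of the gene. That of Slc7a7 lies inside the span of the gene, chr15:31792122-31852732, so other starts of a gene were not searched. The core of the amino acid response element, through which the factor ATF4 acts on starved cells, was searched on both strands as TGATGNAA. It was in 3 of the 38 windows (7.89%) and in 3.98% of 33469 windows of all genes. All 3 were carriers of the growth and starvation group, and 30 bases around each are printed first, with the motif in capitals, which on the Slc1a4 strand shown reads as its reverse complement. The HNF1 half-site GTTAATNA, of a factor of proximal tubule genes, was in 1 of 38 (2.63%) against 2.59% of all windows, in Slc7a12, and is printed likewise. The whole windows of Slc6a18 and Slc7a7 follow, an apical and a basolateral carrier whose levels are described below, and neither holds these motifs or the E-box CACGTG. The E-box, bound by Myc and clock factors and a palindrome counted once, was in 7 of 38 windows (18.42%) against 6.42%. A match describes the letters only and was not tested as a site.
Slc1a4, motif at -235, window chr14:98761513-98761812, minus strand: cgcctccagcgTTGCATCAtccagccagca
Slc38a1, motif at -142, window chr7:129681352-129681651, minus strand: gggggaaactcTGATGCAAccaaccagtcc
Slc7a1, motif at -30, window chr12:11664238-11664537, plus strand: cggcgcgcggcTGATGAAAccggctcggat
Slc7a12, motif at -88, window chr2:88868054-88868353, minus strand: ataactcagaaGTTAATTAttttcaaaccc
Slc6a18, window chr1:31436403-31436702, plus strand: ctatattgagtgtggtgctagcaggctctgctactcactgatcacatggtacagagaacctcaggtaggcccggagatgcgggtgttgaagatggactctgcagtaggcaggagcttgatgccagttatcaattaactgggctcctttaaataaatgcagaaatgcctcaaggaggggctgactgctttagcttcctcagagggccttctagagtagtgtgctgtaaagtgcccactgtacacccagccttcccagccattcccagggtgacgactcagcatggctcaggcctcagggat
Slc7a7, window chr15:31835634-31835933, minus strand: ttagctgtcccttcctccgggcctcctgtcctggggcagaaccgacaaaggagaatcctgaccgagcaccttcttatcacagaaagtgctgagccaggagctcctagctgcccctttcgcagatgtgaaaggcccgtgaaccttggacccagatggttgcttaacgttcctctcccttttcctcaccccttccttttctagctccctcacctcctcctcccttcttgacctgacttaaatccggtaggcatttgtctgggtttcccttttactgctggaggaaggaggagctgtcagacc

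No carrier passed the test between the groups. With limma across 31042 probe sets and an adjusted p of 0.1 as the threshold, 0 of 50 members passed, against 29 of 14217 genes (0.204%). The smallest adjusted p of a member was 0.17, and 454 probe sets had a smaller p. At an unadjusted p under 0.05, 1 member was higher in the Si deplete group and 5 were lower, where the share of all genes was 10.5% higher and 7.95% lower. In both directions together this was 12% of the members and 18.5% of the genes, and 16% against 22.5% among those with a mean log2 level of at least 4. These shares are descriptions, and their difference was not tested. Groups did not overlap for 0 members on the higher side and 3 on the lower side, beside 6.45% and 5.49% of all genes. Taken as Si deplete minus Si replete on the log2 scale, the median difference of the members was -0.01 and that of all genes was 0.0001, with 22 members above 0 and 28 below. The differences ran from -0.50 for Slc38a3 to 0.57 for Slc7a7, and only those 2 exceeded 0.5 in size (4% of members, 7.91% of genes). The 95% interval of the difference lay within 1 log2 unit either side of 0 for 46 members and within 0.5 for 32. Of the 50, 25 had a mean log2 level below 4, close to the bottom of the scale, and are called dim here. Among the 25 brighter members, 21 had intervals within 1 unit.

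**Figure D1:**
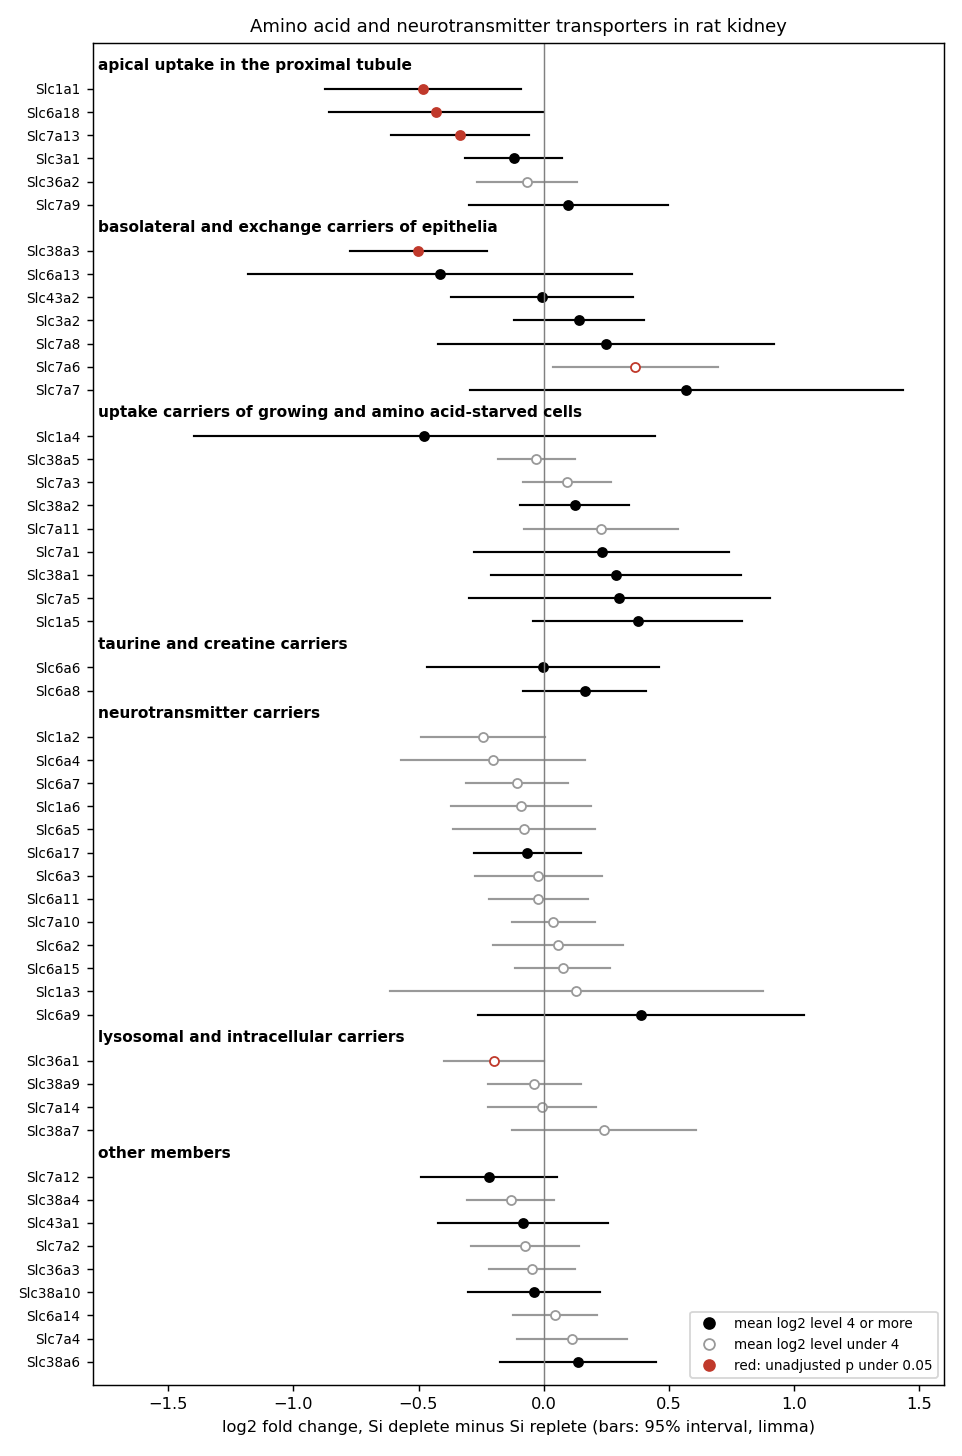
Difference in log2 level (Si deplete minus Si replete) of each of the 50 carriers, with its 95% interval from limma, ordered by role. The points lie between -0.50 and 0.57 and none passed an adjusted p of 0.1.

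Of the 6 apical carriers of the proximal tubule, 5 were lower in the Si deplete group and 1 was higher, with a median of -0.23, and 3 had an unadjusted p under 0.05 from limma (7.95% of all genes on the lower side). Slc1a1, the apical carrier of glutamate and aspartate, had levels of 9.69, 10.06, 10.35 and 9.87 in the Si deplete kidneys and 10.44, 10.64, 10.73 and 10.08 in the Si replete kidneys. The groups overlapped through the fourth Si replete kidney, and the difference was -0.48 (standard error 0.17, limma adjusted p = 0.26). A second probe set of Slc1a1 gave -0.45 (standard error 0.13, adjusted p = 0.21), and there the groups did not overlap. Slc6a18, a neutral amino acid carrier of the brush border, was at 9.79, 10.70, 10.69 and 10.42 in Si deplete and at 10.97, 10.79, 10.78 and 10.78 in Si replete kidneys. All 4 deplete levels lay below all 4 replete levels, which is the smallest p that an exact 2-sided permutation test allows with 4 against 4 (0.0286), but the first deplete kidney was far below its group. The difference was -0.43 (standard error 0.19, limma adjusted p = 0.33).

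Slc7a13 is a light chain of the late proximal tubule that carries aspartate and cystine and pairs with Slc3a1. It was at 12.62, 12.77, 12.95 and 13.13 in Si deplete and 13.29, 13.14, 13.33 and 13.05 in Si replete kidneys, a difference of -0.33 (standard error 0.12, limma adjusted p = 0.27). Its heavy chain Slc3a1 was at 12.94, 13.10, 13.21 and 13.22 against 13.28, 13.25, 13.26 and 13.15, a difference of -0.12 with a 95% interval from -0.31 to 0.07. Slc7a9, the other light chain of Slc3a1 and the carrier of cystine and dibasic amino acids, was at 10.49, 10.94, 10.51 and 10.45 against 10.43, 10.40, 10.19 and 10.97, a difference of 0.10 (-0.30 to 0.50). For both chains of the cystinuria pair, the interval lay within 0.5 log2 units of 0. The dim Slc36a2, a proton-coupled carrier of glycine and proline, differed by -0.07.

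The count of lower apical carriers changed with the arrays kept. It was 0 without Si deplete replicate 1, 0 without Si replete replicate 3, and from 1 to 3 when any other array was left out, although at least 5 of the 6 stayed below 0 each time. Si deplete replicate 1 stood apart from the rest on the first principal component of all probe sets (42.1% of the variance), at 64.0 where the other deplete arrays were at -1.94 to 19.2 and the replete arrays at -25.9 to -18.8. Without it, the median of the 6 went from -0.23 to -0.14. Slc1a1 then differed by -0.38, Slc7a13 by -0.25 and Slc6a18 by -0.23, with unadjusted p-values from limma of 0.056, 0.057 and 0.052. Without Si replete replicate 3 the unadjusted p-values were 0.062, 0.063 and 0.072. Si deplete replicate 1 was the lowest of the 8 arrays for 10 of 13 proximal tubule markers (76.9%). It was also the lowest for 9 of 25 brighter carriers (36%) and for 22.1% of 9489 brighter genes. The part of that array's proximal tubule RNA in the apical values was not tested.

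**Figure D2:**
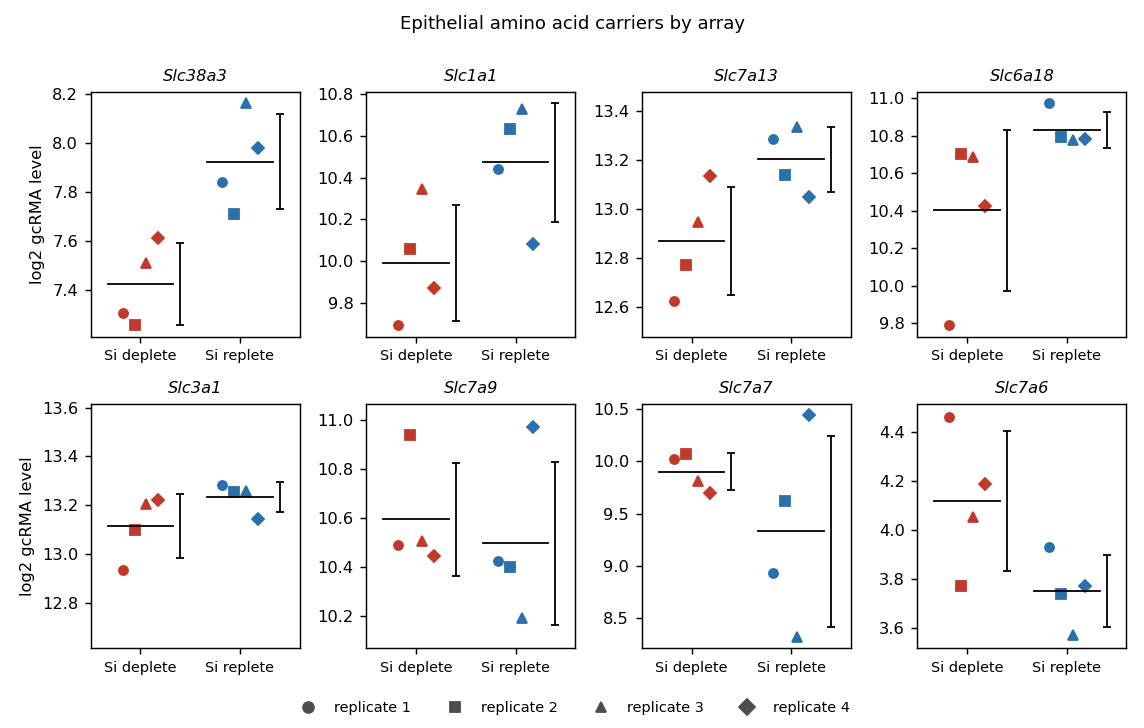
Log2 levels of apical and basolateral carriers in each of the 8 kidneys, with one marker shape per replicate number, a line at each group mean and a bar of 1 SD either side. Slc38a3 and Slc6a18 show no overlap between groups, while Slc7a7 spreads from 8.32 to 10.44 within the Si replete group.

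Among the 7 basolateral and exchange carriers, 4 were higher and 3 lower in the Si deplete group, with a median of 0.14. The smallest p of all the carriers was that of Slc38a3, which takes glutamine from the blood into proximal tubule cells for ammonia production. Its levels were 7.31, 7.26, 7.51 and 7.61 in Si deplete and 7.84, 7.71, 8.16 and 7.98 in Si replete kidneys. Every deplete kidney was below every replete kidney, by 0.50 on average on the log2 scale (standard error 0.12, 95% interval from -0.78 to -0.23, limma adjusted p = 0.17, exact permutation p = 0.0286), and the count of non-overlapping genes on the lower side was 5.49% of all. Without Si deplete replicate 1 the difference was -0.46 (limma adjusted p = 0.25). Genes that act on glutamine inside the cell did not share a direction, since 4 of 8 measured were above 0 and 4 below, with a median of -0.01. Pck1, which makes glucose from the carbon of glutamine, differed by 0.02 and Glul, glutamine synthetase, by -0.04. Glud1, glutamate dehydrogenase, differed by -0.19 without overlap, and Gpt, alanine aminotransferase, by -0.91 (limma adjusted p = 0.29).

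Slc7a7, which with the heavy chain Slc3a2 passes dibasic amino acids to the blood, had the largest positive difference of the carriers and the widest range within the Si replete group. It was at 10.02, 10.07, 9.81 and 9.69 in Si deplete and 8.93, 9.62, 8.32 and 10.44 in Si replete kidneys. The difference of 0.57 (standard error 0.38, limma adjusted p = 0.51) depended on which replete kidney was kept, at 0.94 without replicate 4 (limma unadjusted p = 0.008, adjusted p = 0.27) and 0.23 without replicate 3. Slc7a8, the light chain that exports neutral amino acids, was at 5.80, 7.0, 6.36 and 5.96 against 5.88, 6.22, 5.45 and 6.57, a difference of 0.25 (standard error 0.30). Slc6a13, a basolateral carrier of GABA and taurine, was at 4.29, 5.55, 5.09 and 5.41 against 5.48, 5.80, 4.67 and 6.04, a difference of -0.41 (standard error 0.34). Both overlapped broadly between the groups. The shared heavy chain Slc3a2 was at 10.89, 10.97, 10.62 and 10.61 against 10.53, 10.72, 10.49 and 10.80, a difference of 0.14 (standard error 0.11). Slc7a6, a second exchanger of dibasic amino acids, was the one member higher at an unadjusted p under 0.05 (10.5% of genes), at 4.46, 3.77, 4.05 and 4.19 against 3.93, 3.74, 3.57 and 3.77. It was dim, and the difference of 0.37 (limma adjusted p = 0.29) became 0.25 (unadjusted p = 0.076) without Si deplete replicate 1. Slc43a2, a uniporter of branched-chain and aromatic amino acids, differed by -0.01.

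Some basolateral carriers spread widely among the Si replete kidneys. Slc7a7, Slc7a8, Slc6a13 and Slc3a2 all ranked the 4 replete arrays in the same order, lowest in replicate 3, then 1, then 2, and highest in replicate 4. The range within the replete group was 2.13 log2 units for Slc7a7, 1.12 for Slc7a8 and 1.38 for Slc6a13, but only 0.31 for Slc3a2. It was 0.78 for the apical Slc7a9, which ranked the arrays in another order. The median range was 0.43 over the 25 brighter carriers and 0.29 over brighter genes. The same order was held by 5 of 13 proximal tubule markers, among them Slc5a2, the glucose carrier of the early segment, at 7.98, 8.78, 7.09 and 9.95, and Slc5a12, a lactate carrier, at 7.16, 8.26, 6.86 and 9.40. The exact opposite order was held by Slc7a13, the late-segment light chain, and by Slc6a17. Of 9489 brighter genes, 514 held the first order and 404 the opposite one, beside 4 and 2 of the 25 brighter carriers. Of the brighter carriers, 5 (20%) were lowest in replicate 3 and highest in replicate 4 of the replete group, against 9.85% of brighter genes, and 4 (16%) were the other way round, against 7.71%. This order was noticed in the values and is a description with no test, and the part that the segments in each ground kidney had in it was not tested.

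**Figure D3:**
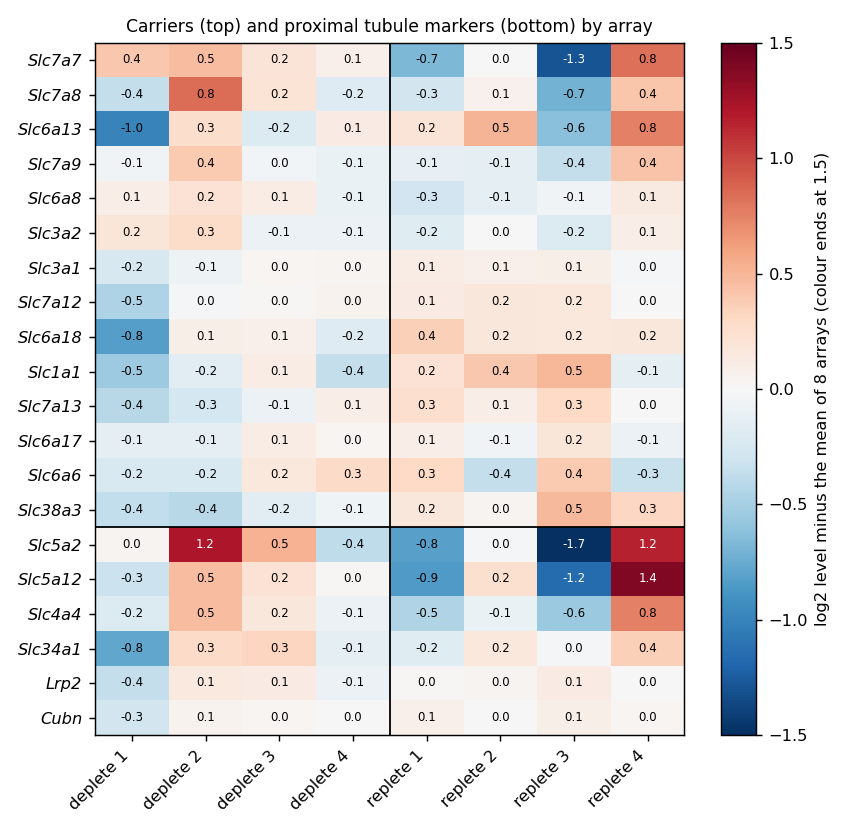
Deviation of epithelial carriers and proximal tubule markers, each from its own mean over the 8 arrays, in log2 units, with arrays in columns. Slc7a7, Slc7a8 and Slc6a13 follow Slc5a2 and Slc5a12 across the Si replete arrays, low in replicate 3 and high in replicate 4.

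Of the 9 carriers that supply growing or amino acid-starved cells, 7 were higher and 2 lower in the Si deplete group, with a median of 0.23, and 0 had an unadjusted p under 0.05. The median was 0.11 when Si deplete replicate 1 was left out and 0.09 when Si replete replicate 4 was, with 7 still above 0. Slc1a5, a glutamine exchanger, was at 8.62, 8.01, 8.43 and 7.70 in Si deplete and 7.71, 7.92, 7.91 and 7.71 in Si replete kidneys. The fourth deplete kidney lay with the replete ones, and the difference of 0.38 (standard error 0.18, limma adjusted p = 0.38) was 0.54 without it (adjusted p = 0.17) and 0.23 without Si deplete replicate 1. Slc38a1, a sodium-coupled glutamine carrier with the response core in its promoter, was at 7.56, 7.08, 7.64 and 7.72 against 7.57, 7.49, 7.18 and 6.61, a difference of 0.29 (standard error 0.22) that was 0.09 without Si replete replicate 4. Slc7a1, the carrier of arginine and lysine that also holds that core, was at 8.21, 8.03, 7.53 and 7.64 against 8.01, 7.57, 7.86 and 7.04, a difference of 0.23 (standard error 0.23) that was 0.04 without the same array. Slc1a4, the third with the core and an exchanger of serine and alanine, went the other way on average, at 4.76, 6.17, 5.63 and 5.05 against 6.29, 6.41, 6.08 and 4.73. Its difference was -0.48 with a 95% interval from -1.40 to 0.44. The intervals of Slc38a1 (-0.21 to 0.79) and Slc7a1 (-0.28 to 0.74) also held 0. The direction of none of the 3 carriers with the core is therefore settled, and none of the 3 passed.

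Slc38a2, the carrier that adapts to amino acid supply in many cells, was at 9.97, 9.93, 10.22 and 10.10 against 9.91, 10.02, 10.02 and 9.76, a difference of 0.12 (95% interval from -0.09 to 0.34). Slc7a5, the light chain for leucine uptake, was at 4.92, 4.04, 4.72 and 3.75 against 3.84, 3.73, 4.30 and 4.36, a difference of 0.30 (standard error 0.27). The cystine importer Slc7a11 was dim, at 3.07, 2.77, 2.85 and 3.20 against 3.06, 2.54, 2.65 and 2.73. Its groups overlapped, and the difference was 0.23 (standard error 0.14). Among 17 genes of the amino acid response, 13 were above 0 and 4 below, with a median of 0.23 that was 0.06 without Si deplete replicate 1, and none passed. Atf3, a stress-induced factor, was the largest of them at 1.76 (standard error 0.41, limma adjusted p = 0.16), with no overlap between groups. Asns, asparagine synthetase and a classic target of the response, differed by 0.41 (standard error 0.37), and Atf4 itself by 0.10 (standard error 0.16). Of 16 genes listed for amino acid sensing by the kinase complex mTORC1, which include genes of the complex itself, 9 were above 0 and 7 below. Their median was 0.03.

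**Figure D4:**
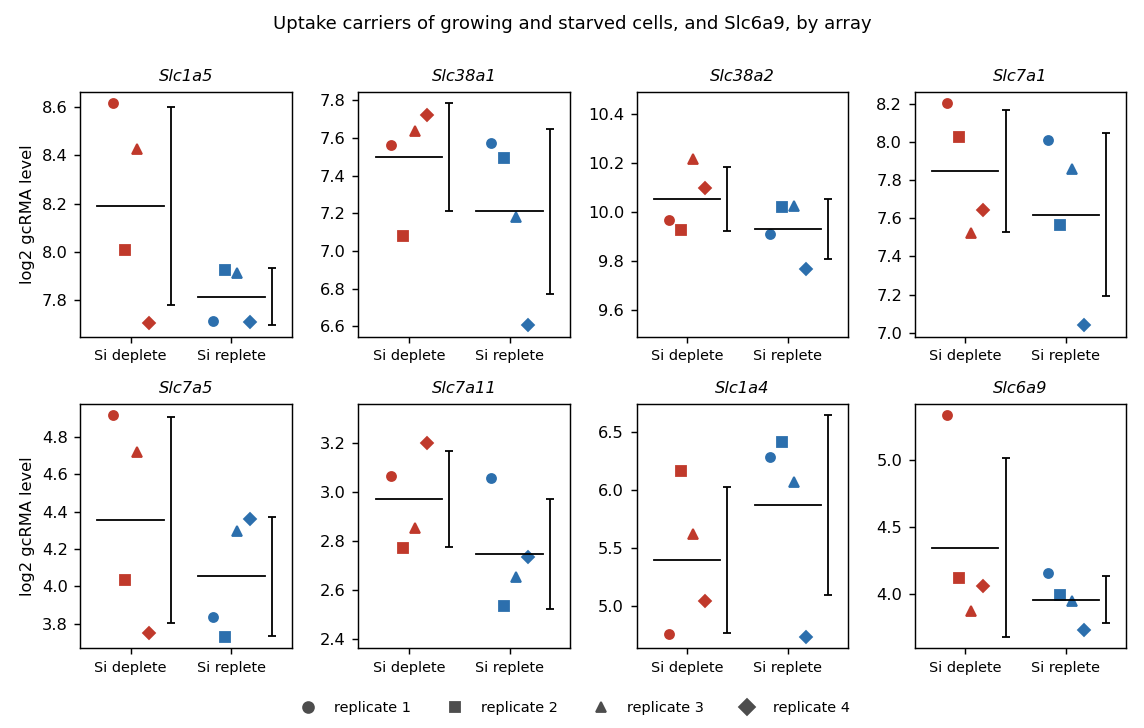
Log2 levels of the uptake carriers of growing and starved cells, and of Slc6a9, in each of the 8 kidneys, with a line at each group mean and a bar of 1 SD either side. The groups overlap in every panel, and Si deplete replicate 1 is the highest array for Slc1a5, Slc7a1, Slc7a5 and Slc6a9 and among the lowest for Slc1a4.

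The 2 carriers of taurine and creatine did not differ beyond their spread. Slc6a6, which takes up taurine, was at 10.97, 10.97, 11.36 and 11.49 in Si deplete and 11.50, 10.84, 11.59 and 10.87 in Si replete kidneys, with nearly equal means (difference -0.0031, 95% interval from -0.47 to 0.46). Slc6a8, which takes up creatine, was at 10.99, 11.12, 11.01 and 10.80 against 10.62, 10.77, 10.85 and 11.04, a difference of 0.16 (-0.08 to 0.41). Among enzymes that make these compounds, Csad and Cdo1 of taurine synthesis were at -0.39 and -0.48 (limma adjusted p = 0.28 and 0.29). Of the creatine enzymes, Gamt was at -0.60 (adjusted p = 0.21) and Gatm, the first step, at -0.18 (adjusted p = 0.44). Ckb, a creatine kinase, was at 0.57 (adjusted p = 0.20).

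Of the 13 neurotransmitter carriers, 11 were dim, with means from 1.69 to 3.89. Their differences ran from -0.24 to 0.39 with a median of -0.02, and 0 had an unadjusted p under 0.05. The dim ones include the carriers of noradrenaline (Slc6a2), dopamine (Slc6a3) and serotonin (Slc6a4), which differed by 0.06, -0.02 and -0.20. Slc1a2, the main glutamate carrier of astrocytes, was at 1.95, 1.63, 1.72 and 1.83 against 2.10, 2.19, 1.79 and 2.01, a difference of -0.24 (limma adjusted p = 0.34), but its other probe set gave 0.02. Slc6a9, a glycine carrier, was at 5.34, 4.12, 3.87 and 4.06 in Si deplete and 4.16, 3.99, 3.95 and 3.73 in Si replete kidneys. Its difference of 0.39 (standard error 0.29) came from the first deplete kidney and was 0.06 without it. The other, dim probe sets of Slc6a9 gave 0.32 and 0.20 (limma adjusted p = 0.24 and 0.30). The groups overlapped at the first of these and did not overlap at the second. Slc6a17, a vesicular carrier of neutral amino acids in brain, had levels of 9.65, 9.63, 9.89 and 9.81 against 9.87, 9.72, 9.96 and 9.70 and differed by -0.07 (95% interval from -0.28 to 0.15). Its other 4 probe sets were dim and differed by -0.10 to 0.11. All 8 markers of nerve fibres were dim too, with a median of 0.00. Of these, 2 were higher at an unadjusted p under 0.05, where the share of all genes was 10.5%. Uchl1 was at 0.76 (limma adjusted p = 0.21) without overlap between groups, a pattern of 6.45% of all genes on the higher side. Tubb3 was at 0.46 (adjusted p = 0.21), while Th and Dbh, enzymes of catecholamine synthesis, were at 0.05 and -0.13.

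All 4 lysosomal carriers were dim. Slc36a1, a proton-coupled exporter from lysosomes, was at 2.21, 2.42, 2.33 and 2.39 in Si deplete and 2.65, 2.42, 2.63 and 2.44 in Si replete kidneys, a difference of -0.20 (limma adjusted p = 0.33, unadjusted p = 0.0499). Slc38a7, a lysosomal glutamine carrier, was at 3.25, 3.96, 3.21 and 3.26 against 3.23, 3.21, 3.08 and 3.21. Its difference of 0.24 was carried by the second deplete kidney and was 0.06 without it. Slc38a9, the lysosomal arginine sensor, differed by -0.04, and Slc7a14 by -0.01.

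The other 9 members differed by -0.22 to 0.14. Slc7a12, a kidney member of family 7 known as Asc-2 in mouse, was at 12.68, 13.12, 13.16 and 13.20 in Si deplete and 13.27, 13.32, 13.30 and 13.15 in Si replete kidneys. The first deplete kidney lay apart, and the difference of -0.22 (standard error 0.12, limma adjusted p = 0.43) was -0.10 without it. Slc38a4, a dim carrier best known from liver, did not overlap between the groups, at 2.15, 2.04, 2.24 and 2.25 against 2.28, 2.26, 2.30 and 2.36, but differed by only -0.13 (limma adjusted p = 0.44). Slc38a10 was at 8.95, 9.29, 9.30 and 9.35 against 9.42, 9.15, 9.37 and 9.11, a difference of -0.04 (95% interval from -0.30 to 0.22).

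Genes that work with the carriers were read from lists and described by counts, beside 10.5% of all genes higher and 7.95% lower at an unadjusted p under 0.05. Of 24 genes of amino acid synthesis and breakdown in the kidney, 20 were below 0 and 4 above, with a median of -0.23, and 9 were lower at an unadjusted p under 0.05, or 3 to 9 when 1 array was left out. Without Si deplete replicate 1 the median was -0.07, with 17 below 0 and 7 above. None passed the adjusted test. Besides Gamt, Kynu of tryptophan breakdown (-0.74) and Bckdhb of branched-chain breakdown (-0.42) did not overlap between groups. Odc1, which makes polyamines from ornithine, differed by -0.84 and Arg2, the mitochondrial arginase, by -0.39. All 3 measured partners of apical carriers were below 0, with a median of -0.33, but 2 were below and 1 above without Si deplete replicate 1, with a median of -0.05. Cltrn (collectrin), which brings carriers of family 6 to the brush border, was at 12.52, 13.06, 13.24 and 13.16 against 13.23, 13.36, 13.41 and 13.47, a difference of -0.37 (limma adjusted p = 0.30). The peptidase Anpep differed by -0.33 and Ggt1 by -0.04. Of 12 carriers of other families for amino acids, peptides or vesicular transmitters, 6 were above 0 and 6 below. Slc15a2, the high-affinity peptide carrier, differed by -0.55 and Slc15a3 by 0.41, and Slc16a10, the aromatic amino acid uniporter, by -0.11. Of 10 genes of taurine, creatine and transmitter metabolism, 4 were above 0 and 6 below, and Maoa, which breaks down monoamines, differed by -0.26 without overlap.

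**Figure D5:**
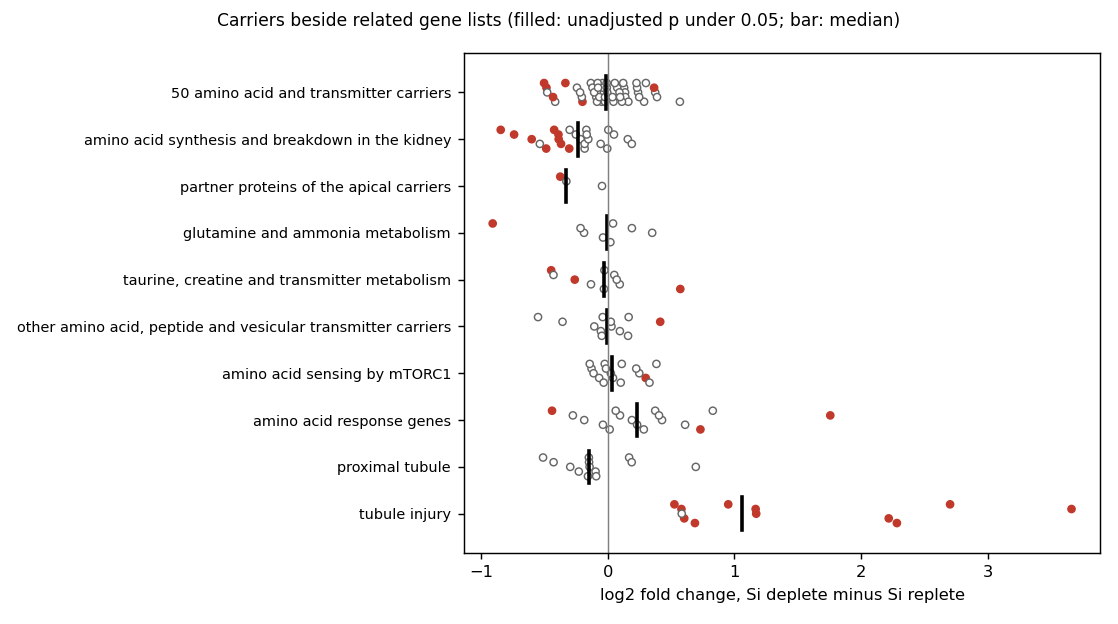
Difference in log2 level (Si deplete minus Si replete) of the 50 carriers and of the genes of related lists, 1 point per gene, filled at an unadjusted p under 0.05, with a bar at each median. Medians are -0.01 for the carriers, -0.23 for amino acid synthesis and breakdown, -0.15 for proximal tubule markers and 1.06 for tubule injury genes.

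Markers of cell types and of injury are given beside these values. The mean log2 level of 13 proximal tubule markers on an array ranged from 10.84 to 11.61 in Si deplete and from 11.13 to 11.79 in Si replete kidneys, with a median difference of -0.15 (-0.01 without Si deplete replicate 1), and none had an unadjusted p under 0.05. All 12 genes of tubule injury were above 0, with a median of 1.06, and 11 had an unadjusted p under 0.05 (10.5% of all genes on the higher side). Their mean level ranged from 9.54 to 10.93 in Si deplete and from 8.35 to 9.17 in Si replete kidneys, and Myc passed (2.28, limma adjusted p = 0.082). All 9 macrophage and myeloid markers (median 0.64) and all 6 lymphocyte markers (median 0.65, 4 of them dim) were above 0 as well, and so were 7 of 8 markers of fibroblasts and mural cells (median 0.22). At an unadjusted p under 0.05, 5 macrophage and myeloid, 3 lymphocyte and 3 fibroblast and mural markers were higher. Medians were -0.38 for 4 glomerular markers, -0.02 for 6 of endothelium, -0.36 for 4 of blood cells, -0.21 for 9 of collecting duct and -0.05 for 7 of the thick ascending limb and distal tubule. Of these, 2 glomerular, 1 endothelial, 3 blood cell and 1 thick ascending limb and distal markers were lower at that p, beside 7.95% of all genes. The part of injury or of these cells in the carriers' values was not tested.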

How the data were processed

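RNA from whole left kidneys, of 4 rats in each group, was measured on Affymetrix rat genome arrays, 1 rat per array. The deposited values are log2 levels, which the authors computed with gcRMA (m-estimator summaries), and the submitters' processing notes name GCRMA 2.36.0. Such levels compress low signals, and background correction and normalization were kept as deposited. Of 31099 probe sets, 57 controls were left out. Groups were compared, as Si deplete minus Si replete, with limma 3.58.1 (lmFit and eBayes) in R 4.3.3, with p-values adjusted by Benjamini-Hochberg over 31042 probe sets and calls made under 0.1. Symbols came from the platform annotation (20826 probe sets with 1 symbol, 436 with several, 9780 with none). The 50 members have 68 probe sets, and 11 have more than one. One gene is not reported here.

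The methods describe 1 rat of each group handled on a shared day, which the labels tie to no array. Levels are not compared between probe sets. Each array held a separate kidney by the study's methods, and arrays correlated at 0.9845 to 0.9961. Array medians ran from 3.85 to 3.92 in the Si deplete group and from 3.80 to 3.84 in the Si replete group, without overlap. The number of arrays limits the precision. Exact 2-sided permutation tests ran over 70 arrangements. Values were given for 23 members by a rule (the 8 with the smallest p in each direction, those with no overlap between groups, and the 2 with the highest level in each role, with up to 4 genes of smallest p in a related list) and for others where a role or pattern called for them, chosen after their values were seen. Members, roles, lists and motifs were chosen with earlier results of these data known. The fit was repeated with an intensity trend, with a robust prior, without dim probe sets (mean under 4), after centring arrays on their medians, after quantile normalization, with a replicate block, with probe sets averaged per gene, without each array, at an adjusted p of 0.05 and with Storey's q-value. The analysis was tested on simulated data.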

Additional observations from a re-analysis of the deposited data

Results flagged for a closer look

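Among 46 sets of 4 arrays of the named members, 6 held 1 array that passed the critical value of Dixon's test. The test divides the gap to the nearest other array by the range of the 4, and chance exceeds the critical value in about 1 in 20. Si deplete replicate 1 was the lowest of its group for Slc38a10 (8.95, the others 9.29 to 9.35) and for Slc7a12 (12.68, the others 13.12 to 13.20), and the highest for Slc6a9 (5.34, the others 3.87 to 4.12). Si deplete replicate 2 was the highest for Slc38a7 (3.96, the others 3.21 to 3.26). Si replete replicate 3 was the lowest for the same dim gene (3.08, the others 3.21 to 3.23). Si replete replicate 1 was the highest for Slc6a18 (10.97, the others 10.78 to 10.79), where the 3 others lay within a very narrow range.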

How the results depend on the processing

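No member passed an adjusted p of 0.1 under any alternative run. Over all probe sets, 35 were higher and 12 lower. These counts were 58 and 19 with means under 4 left out, 33 and 19 after arrays were centred on their medians, 121 and 51 by Storey's q-value, 0 and 0 at an adjusted p of 0.05, and from 0 to 235 higher and 0 to 67 lower when 1 array was left out, so they rest on single arrays. Members at an unadjusted p under 0.05 were 1 higher and 5 lower, against 0 and 3 with means under 4 left out or with quantile normalization, 0 and 7 after centring, and 0 to 2 higher and 2 to 5 lower with 1 array left out. The median of the members, -0.01, was -0.0715 after centring and ran from -0.0384 to 0.0233 with 1 array left out. The replicate block gave 90 probe sets higher and 14 lower, and 1 member higher and 3 lower. Deviations of same-numbered arrays from their group means had correlations from -0.09 to 0.09, and 4 of 8 arrays were nearest their own number. These values do not decide whether equal numbers mark pairs. Nothing in the labels ties a number to a day or cage, so the numbers were not taken as pairs. Apical carriers at an unadjusted p under 0.05 were 3, and 0 to 3 with 1 array left out (0 if that was Si replete replicate 3 or Si deplete replicate 1), an alternative added after the data were seen. Of 338 values of the 23 named members, 331 kept their direction. The 7 that did not were near 0, in Slc6a6 (0.0488 with quantile normalization, -0.1246 to 0.1278 with 1 array left out) and Slc38a10 (-0.0902 to 0.0530). Levels near the lower end of the scale limit what the 25 dim members can show.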
